A study of Mus musculus with 24 samples.

Results

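The Zfp genes are the mouse genes named for a zinc finger protein, and 123 of them are described here across oocyte maturation and fertilisation. They were taken by symbol from a table of 23235 genes: Zfp followed by a digit, without Zfp57 and the symbols starting with Zfp36, and with a mean of at least 1 FPKM over the 8 wild-type (WT) libraries. FPKM are by definition fragments per kilobase of transcript, set against the mapped fragments of the library. How the deposited values were scaled across libraries is not known here. Of 357 family genes that the symbol rule left, 123 reached this mean, 234 lay below it, and 5 of those were at 0 in all 24 libraries. The WT values chose the members, so WT levels of the members and their WT changes between stages are given as a description, without a test. A minimum on the WT mean favours genes that are high in WT.

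The 24 libraries form 12 groups of 2: WT, Cnot6l-/- and Btg4-/- mice, each at the germinal vesicle (GV), metaphase I (MI), metaphase II (MII) and zygote stages. All came from C57BL/6 mice at postnatal day 21. GV oocytes were taken 48 h after PMSG, a gonadotropin that makes follicles grow. MI and MII oocytes were reached in culture, after 8 and 16 h, and zygotes were collected 24 h after hCG, which triggers ovulation, so meiosis was not observed in the animal at MI and MII. Cnot6l encodes a deadenylase of the CCR4-NOT complex, which removes poly(A) tails. Btg4 encodes an adaptor that brings CCR4-NOT to mRNA once meiosis resumes. The sources used here do not describe the deleted alleles, the genotype of the sperm, or whether the 2 libraries of a group came from separate animals, so each p-value covers the spread between these library pairs alone, which may be technical.

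A C2H2 zinc finger is a short protein loop that holds a zinc ion between cysteines and histidines, and each finger reads a few bases of DNA. Strings of fingers joined by a conserved linker let a protein recognise a long site. Many mouse Zfp proteins also carry a KRAB box, which binds the corepressor Trim28 (KAP1) and through it brings histone methylation to retroelements and imprinted genes. Growing oocytes store mRNA, stop transcription before meiosis resumes, and then live on that store until the embryonic genome is switched on, so mRNA levels between GV and zygote change largely by decay and by changes of the poly(A) tail.

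The targeted genes were read first. Cnot6l stood at 24.1 and 73.9 FPKM in WT GV oocytes and at 4.30 and 5.92 in Cnot6l-/- GV oocytes, a log2 difference of -2.84 ± 0.65 (SE, limma, adjusted p = 0.0073). Btg4 stood at 2120 and 2490 FPKM in WT GV oocytes and at 1641 and 2515 in those labelled Btg4-/- (adjusted p = 0.81), so the transcript does not check that label, and the libraries are called labelled Btg4-/- below. Summed FPKM fell from 451732 and 543648 in WT GV oocytes to 49930 and 76038 in WT zygotes, so the columns have no common total, and read depth is unknown. All 12 oocyte markers were found, summing to at least 12880 FPKM in every GV library. The 14 cumulus markers summed to between 17.6 and 29.0 FPKM in the GV libraries. Cyp19a1 was the highest of them, with GV means of 10.6 FPKM in WT, 18.1 in Cnot6l-/- and 6.33 in labelled Btg4-/-. Inha followed at 5.03, 3.21 and 6.21, against 0.0150 in WT MI oocytes, and Foxl2 was at 0 in 9 of the 12 groups. The blood and immune markers summed to between 2.02 and 3.13 FPKM in the GV libraries. Of these, Hbb-b1 and Hba-a1 were at 0 in every group, and Cd68 had GV means of 1.31, 1.63 and 1.29 FPKM. The 9 sperm markers summed to 49.9 and 52.7 FPKM in WT GV oocytes, and to between 79.0 and 105 in those of both other genotypes. In zygotes, the only stage here after fertilisation, they summed to 6.27 and 6.32 FPKM in WT. Zygote sums were 3.83 and 9.80 in Cnot6l-/- and 8.07 and 9.86 in libraries labelled Btg4-/-. The sums were thus higher before fertilisation, at GV, than in zygotes of every genotype. Which of these genes carried the sums is not given here. The part of other cells in the results was not tested. Bulk libraries cannot tell fewer cells from less RNA per cell, and Smart-Seq2 primes on poly(A), so shorter tails and less mRNA cannot be told apart.

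The members made up 0.290 to 0.359% of summed FPKM in WT GV oocytes and 0.417 to 0.452% in WT zygotes. In MI oocytes they made up 0.487 and 0.499% in Cnot6l-/- and 0.424 and 0.417% in libraries labelled Btg4-/-. All of these shares lay above both WT MI libraries, at 0.304 and 0.317%. In each of the 9 groups whose columns carry the numbers 1 and 2, the number 1 library held the larger share, up to 0.393 against 0.239% in Cnot6l-/- MII oocytes. The part of this split in the results was not tested, and single libraries that decide a count are named beside it.

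The coding sequences show what the members share beyond the name. A KRAB box was found in 50 of the 122 members that had a coding transcript in the mouse annotation (mm9). The median member had 9 fingers and the most had 28; 56 members had 10 or more, and 5 had none of the searched pattern. The linker between fingers occurred in 77. The run of 30 coding bases shared by the largest number of members is printed, with the linker in capitals. It shows why short reads can be shared between family genes. This run occurs in 8 of the 122 members (Zfp120, Zfp345, Zfp442, Zfp930, Zfp932, Zfp958, Zfp960 and Zfp97) and in 14 other genes.
Shared coding run: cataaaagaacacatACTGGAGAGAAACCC
Of all 50-base windows of its transcript, Zfp960 shared 84.5% with another gene, Zfp97 82.1%, Zfp534 64.4%, Zfp955b 58.8%, Zfp955a 57.0% and Zfp932 55.4%. Values of those genes are uncertain, since reads could be split between copies. For 19 members the share was 5% or more, and 77 members shared no window.

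The next 4 stretches of 3 prime UTR are printed because they belong to abundant members that lay far apart in how much was left at MII. Capitals mark the cytoplasmic polyadenylation element (CPE), TTTTAT or TTTTAAT on the transcript strand, which CPEB proteins bind to control tail length in oocytes.
Zfp655, chr5:146007560-146007589, + strand: tttatttttgtaTTTTAATagaatctgcag
Zfp277, chr12:41042090-41042119, - strand: tatcttggatgaTTTTATttcataaactca
Zfp296, chr7:20165975-20166004, + strand: gtgtgaataaaccatctcctTTTTATtctt
Zfp957, chr14:79612178-79612207, - strand: atataaataaatTTTTATtaaactaataaa
Zfp655 had 6 such elements in a 3 prime UTR of 2347 bases and Zfp277 had 2 in 671 bases. In Zfp296 the single element lay 4 bases from the end of a UTR of 68 bases, and in Zfp957 it lay 30 bases from the end of 301 bases. Of 100 members with a 3 prime UTR of at least 50 bases, 68.0% held a CPE, against 57.7% of 9728 tested genes, whose median UTR was shorter (820 against 1014 bases). Overlap with AATAAA or other motifs was allowed. A match is a description of letters and not a bound site.

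Most members were expressed at a low level: 47 had a WT mean from 1 to under 2 FPKM and 18 had 10 FPKM or more. The highest was Zfp655 (chr5:145992628-146008175), whose protein interacts with Vav signalling proteins, at 74.6 and 138 FPKM in WT GV oocytes. Zfp277 (chr12:41041633-41172377), a partner of the Polycomb protein Bmi1, stood at 98.1 and 133 FPKM there. Zfp207 (chr11:80196781-80209750), the BuGZ protein that brings Bub3 to kinetochores and helps build the spindle, stood at 73.9 and 82.8 FPKM. Zfp706, which helps embryonic stem cells leave self-renewal, had the next WT mean. Zfp296 (chr7:20162636-20166005), a partner of the pluripotency factor Klf4, followed it and stood at 75.1 and 125 FPKM in WT GV oocytes. After these came Zfp957, the KRAB gene Zfp932 that acts on endogenous retroviruses, Zfp58, Zfp750, a factor of epidermal differentiation, and Zfp68. Just inside the minimum lay Zfp758 (1.045 FPKM), Zfp276 (1.039), Zfp92 (1.036), Zfp217 (1.019) and Zfp7 (1.001), and just outside lay Zfp612 (0.998), Zfp182 (0.994), Zfp770 (0.971), Zfp788 (0.939) and Zfp101 (0.935).

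In WT, the store of Zfp mRNA shrank in steps that differed widely between members. The median member kept 31.4% of its GV level at MI, 20.4% at MII and 17.7% in the zygote. Over the 9575 genes with a WT GV mean of at least 1 FPKM the medians were 31.8%, 14.6% and 13.1%. The minimum for members covers all WT stages and so favours members that keep their level, whereas that for these genes covers GV alone. At MII, 37 of the 123 members were below 10% of their GV level and 14 kept 50% or more. Of the 9575 genes, 3952 were below 10% and 1217 kept 50% or more. The plot of levels relative to GV shows this spread. The median member changed by -1.14 on the log2(FPKM + 1) scale at MI and by -1.65 at MII. The median of the 10884 genes tested changed by -0.95 and -1.37. The shares and the log2 changes rest on different sets of genes, and adding 1 FPKM shrinks changes of low genes. Neither shows that members fell more or less than other genes. These values describe members that were chosen by their WT levels.

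Scaling of the libraries decides how much of that fall is seen. The deposited FPKM fall for nearly the whole transcriptome, and median-ratio scaling, which sets the typical gene level between libraries, moves the median of all genes in WT from -0.95 to -0.16 at MI and from -1.37 to -0.37 at MII. The median member then changed by -0.20 at MI and by -0.24 at MII. Changes below are on the deposited scale unless scaling is named.

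**Figure D1:**
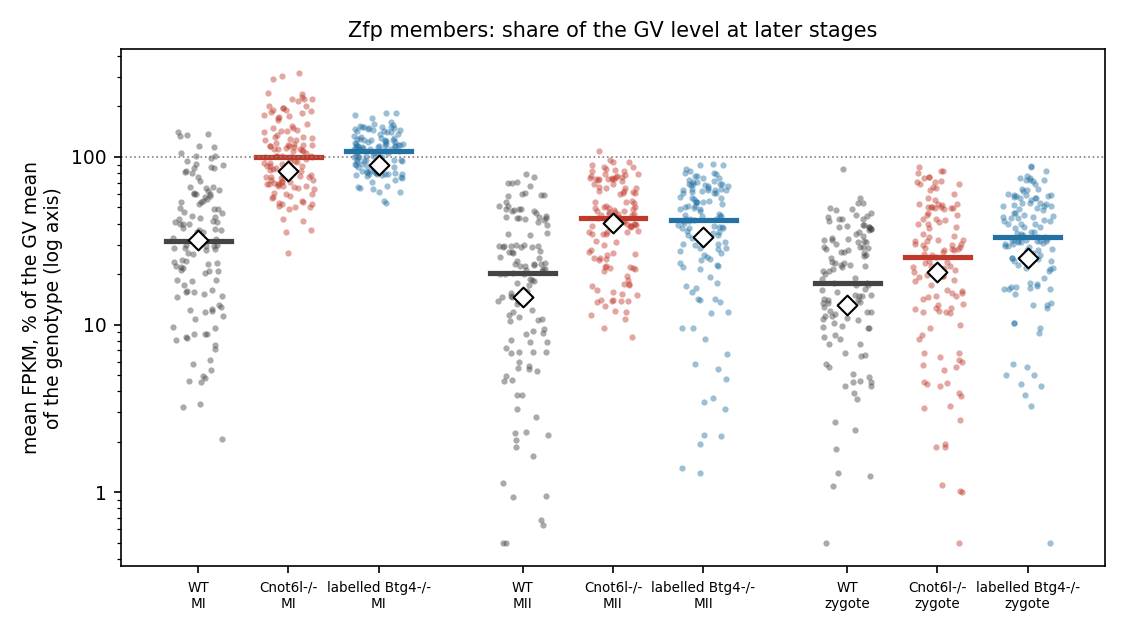
Each point is 1 Zfp member: its mean FPKM at a stage as a percent of its GV mean in the same genotype (log axis; 5 values below 0.5% are drawn at 0.5%). Bars mark the median member and diamonds the median of all genes with a GV mean of at least 1 FPKM. In WT the median member stood at 31.4% at MI and 20.4% at MII, whereas it stood at 99.8% at MI in Cnot6l-/- and 108% in libraries labelled Btg4-/-. The diamonds at MI stood at 31.8% in WT, 82.4% in Cnot6l-/- and 89.7% in libraries labelled Btg4-/-.

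Several members went to a few percent of their WT GV level. Zfp296 went from 75.1 and 125 FPKM at GV to 4.55 and 4.63 at MI and 1.89 and 2.59 at MII, which left 2.24% of its GV mean. Zfp277 went from 98.1 and 133 FPKM to 13.7 and 15.7 at MI and 2.5 and 4.75 at MII (3.14% of GV). For Zfp277 the low library at GV lay above both MI libraries, and the low MI library above both MII libraries. Zfp61 (chr7:25076065-25084568) went from 17.7 and 22.6 FPKM to 0.90 and 1.03 at MI and 0.19 in both MII libraries (0.943%). Zfp524 went from 13.4 and 17.4 FPKM to 0.00 and 0.03 at MII, the smallest share left among the members (0.0976%). Zfp593 came next with 0.296%, at 7.27 and 9.62 FPKM at GV and 0.02 and 0.03 at MII. The KRAB gene Zfp958 kept 1.87%, Zfp58 4.60% and Zfp932 5.94%. Zfp932 is uncertain as named above.

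Other members took other courses. Zfp473 (chr7:51986856-52003987), which works with the U7 small nuclear RNA in making histone mRNA ends, stood at 4.39 and 6.29 FPKM at GV, at 5.92 and 8.70 by MI and at 1.01 and 1.14 by MII. Its GV and MI libraries overlapped, and both MII libraries lay below them, at 20.1% of the GV mean. Zfp957 stood at 31.2 and 39.2 FPKM at GV, 18.0 and 24.7 by MI, 14.3 and 15.6 by MII and, in zygotes, 9.70 and 10.8, so that 60.5, 42.4 and 29.1% of its GV mean were left. Zfp423 kept the largest share of its GV level at MII among the members (79.6%), at 2.06 and 2.16 FPKM at GV and 0.96 and 2.40 at MII, so its MII libraries lay on either side of its GV level.

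From MII to the zygote the median member changed by 0.01 on the log2 scale in WT and the median gene by -0.04. After median-ratio scaling the medians were 0.35 and 0.15. The largest ratio of zygote to MII in the WT means was that of Zfp524, from 0.00 and 0.03 FPKM to 0.05 and 0.35, followed by Zfp933, from 0.03 and 0.06 to 0.18 and 0.34, Zfp963, from 0.07 and 0.25 to 0.32 and 1.22, and Zfp109, from 0.14 and 0.25 to 0.75 and 0.89. All of these levels are low, and Zfp963 shares 40% of its windows with another gene.

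**Figure D2:**
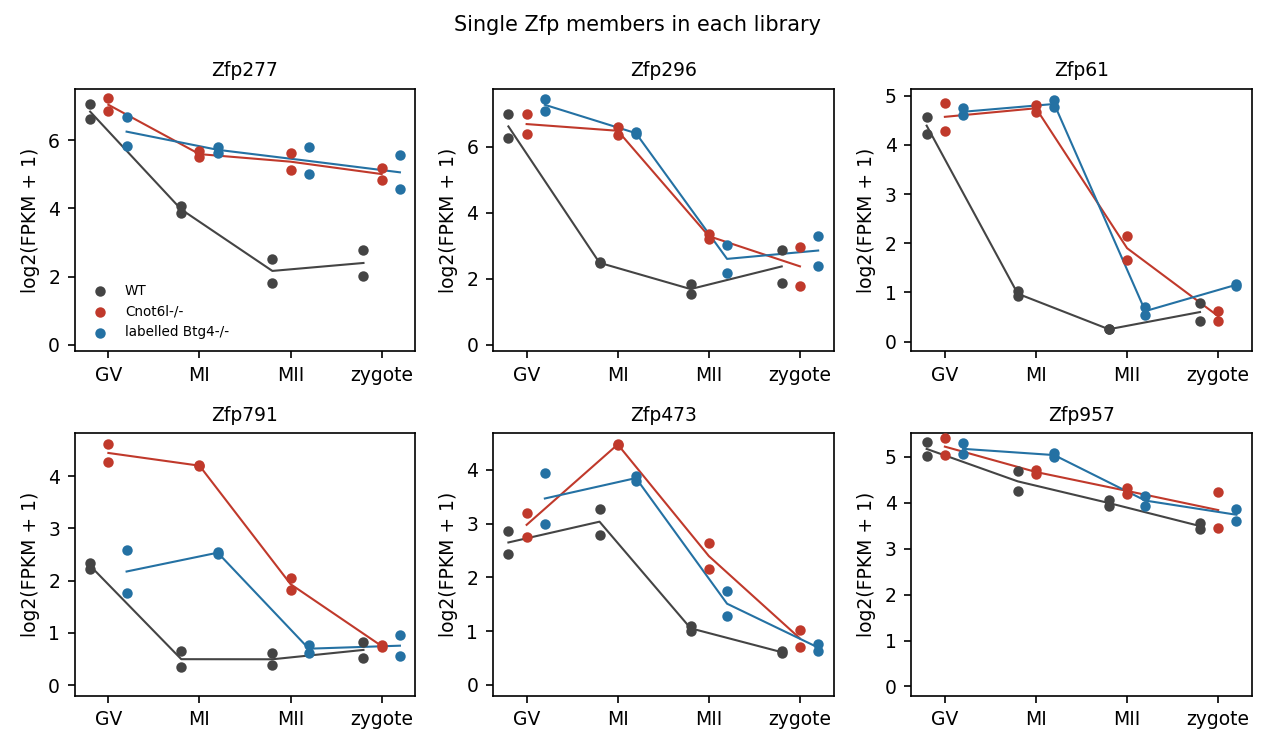
Expression of 6 Zfp members, log2(FPKM + 1), in each of the 24 libraries by stage; points are libraries and lines join the means of the 2 libraries of a genotype. Zfp277 stayed at 22.7 FPKM or more in every Cnot6l-/- and labelled Btg4-/- library, whereas in WT it was at or below 5.94 from MII on; Zfp957 was called in no comparison with WT.

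Before meiosis resumed, few members were called apart from WT. A call means an adjusted p under 0.05 (limma, with Benjamini-Hochberg adjustment over all 10884 genes tested). Members needed a WT mean of 1 FPKM, whereas genes tested needed that mean in any of the 12 groups. Shares of members and of genes called thus rest on unlike minimums, and differences between these shares were not tested. At GV, 3 of 123 members (2.44%) were called in Cnot6l-/- against WT, where 9.09% of all genes tested were called. Zfp791 (chr8:87633066-87646994), a KRAB gene with 15 fingers, stood at 3.68 and 4.07 FPKM in WT and at 18.4 and 23.4 in Cnot6l-/- GV oocytes, a difference of 2.16 ± 0.24 (limma, adjusted p = 7.9e-06). The libraries labelled Btg4-/-, at 2.38 and 5.03 FPKM, overlapped WT. Zfp398 stood at 3.13 and 4.81 FPKM in WT and 1.54 and 2.13 in Cnot6l-/- (-0.80 ± 0.18, adjusted p = 0.0077). Zfp593 (chr4:133799221-133801506), a relative of a yeast ribosome assembly factor, stood at 7.27 and 9.62 FPKM in WT and 3.81 and 6.15 in Cnot6l-/- (-0.68 ± 0.20, adjusted p = 0.045). The Zfp791 call held in all 9 alternatives tried. Without Cnot6l-/- GV library 1, the calls of Zfp398 (adjusted p = 0.091) and Zfp593 (0.43) were lost; without WT GV library 1 that of Zfp398 (0.11) and without WT GV library 2 that of Zfp593 (0.24) was lost. Both were also lost after scaling (Zfp398 0.058, Zfp593 0.2) and in a fit of only the libraries compared (0.47 and 0.64). After scaling, 3 members were called higher (Zfp791, Zfp295 and Zfp108) and none lower, with 7.55% of genes called.

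In GV oocytes labelled Btg4-/-, 2 members (1.63%) were called higher than in WT and none lower, with 7.43% of all genes tested called. Zfp109 stood at 2.54 and 3.14 FPKM in WT and 6.47 and 10.1 in the libraries labelled Btg4-/- (1.25 ± 0.22, limma, adjusted p = 0.0019). Zfp574 stood at 3.40 and 3.84 against 5.37 and 9.41 FPKM (0.82 ± 0.23, adjusted p = 0.038). The groups did not overlap for either gene. Without library 2 of the labelled Btg4-/- GV group 8 members were called, and without library 1 of it 1 member. The Zfp574 call was lost without WT GV library 1 (adjusted p = 0.068), without WT GV library 2 (0.16), without the labelled Btg4-/- GV library 1 (0.43), with only the libraries compared (0.54) and after scaling (0.28), where 1 member was called higher and none lower, with 1.77% of genes called. The Zfp109 call was lost with only the libraries compared (0.43).

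At MI the median member stood at 99.8% of its GV level in Cnot6l-/- and at 108% in libraries labelled Btg4-/-, against 31.4% in WT. Over all genes with a GV mean of at least 1 FPKM the medians were 82.4, 89.7 and 31.8%. In Cnot6l-/- MI oocytes, 78 members were called higher than in WT MI oocytes and 1 lower (64.2% of members), where 61.6% of all genes tested were called. The median member differed by 1.19 on the log2 scale and the median gene by 0.87. After scaling, which lowers the gene median to 0.28, 52 members were called higher and 6 lower, with 46.8% of genes called. In MI oocytes labelled Btg4-/-, 84 members were called higher than in WT and none lower (68.3% of members), against 69.1% of genes. The median member differed by 1.26 and the median gene by 0.99. Scaling lowers that gene median to 0.22 and leaves 35 members higher and 7 lower, with 42.3% of genes called. The shares of members called thus lay close to those of all genes at this stage. Both comparisons share the WT MI libraries.

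**Figure D3:**
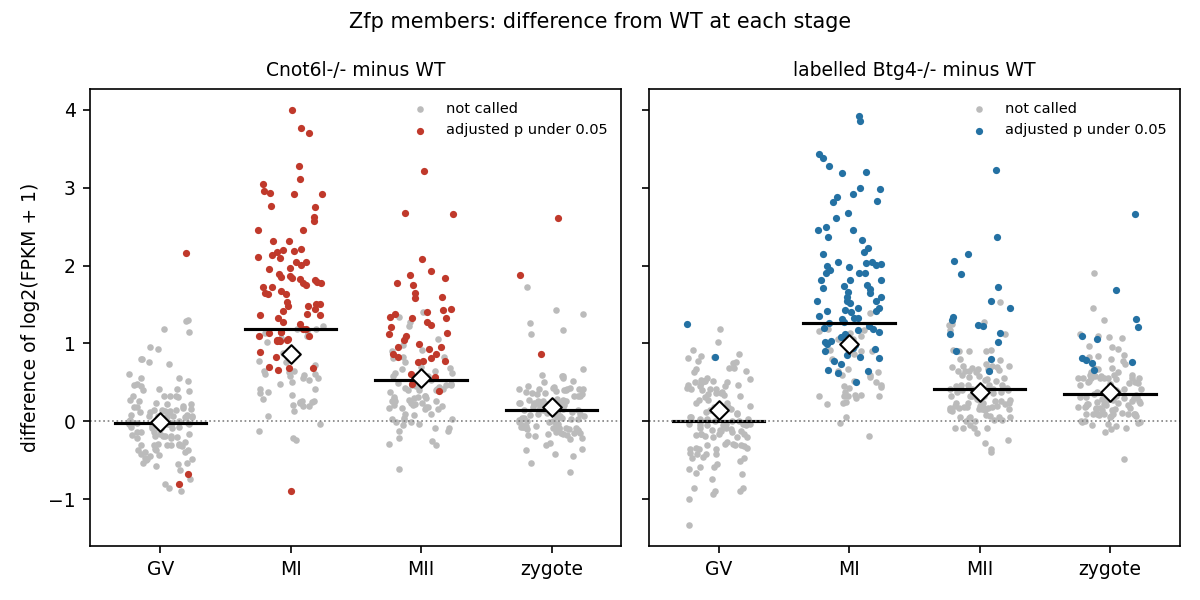
Difference of each of the 123 Zfp members from WT at the same stage, in log2(FPKM + 1), for Cnot6l-/- (left) and libraries labelled Btg4-/- (right). Coloured points were called (limma, adjusted p under 0.05), bars mark the median member and diamonds the median of all genes tested. At MI the median member lay at 1.19 and 1.26, and at GV at -0.02 and 0.00.

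Among called members with at least 5 FPKM, Zfp296 and Zfp61 differed most from WT at MI on the log2(FPKM + 1) scale. Zfp296 stood at 4.55 and 4.63 FPKM in WT MI oocytes, 81.2 and 95.9 in Cnot6l-/- and 81.7 and 85.9 in libraries labelled Btg4-/-. The differences from WT were 4.0 ± 0.43 (limma, adjusted p = 6.4e-07) and 3.92 ± 0.43 (6.3e-07). Zfp61 stood at 0.90 and 1.03 FPKM in WT, 24.5 and 27.2 in Cnot6l-/- and 26.2 and 29.0 in libraries labelled Btg4-/- (3.77 ± 0.23 and 3.86 ± 0.23). Zfp61 thus stood at 111 and 112% of its GV mean in these genotypes and Zfp296 at 85.1 and 54.4%, against 4.79 and 4.60% in WT. Zfp707, a KRAB gene, stood at 1.45 and 1.52 FPKM in WT and 22.4 and 24.0 in Cnot6l-/- (3.28 ± 0.41). Zfp593 stood at 0.14 and 0.21 FPKM in WT, 3.14 and 4.04 in Cnot6l-/- (1.96 ± 0.20) and 8.24 and 8.59 in libraries labelled Btg4-/- (3.0 ± 0.20). Also among the members with the widest differences were Zfp428 (3.11 ± 0.41), Zfp58 (3.05 ± 0.59), Zfp108 (2.96 ± 0.30) and Zfp653 (2.93 ± 0.43) in Cnot6l-/-, and Zfp653 (3.43 ± 0.43), Zfp428 (3.38 ± 0.41), Zfp414 (3.28 ± 0.24), Zfp958 (3.20 ± 0.69) and Zfp524 (3.19 ± 0.25) in libraries labelled Btg4-/-. Each of these calls held in all 9 alternatives.

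Members with known roles in ribosome surveillance, SUMO ligation, pre-mRNA processing and promoter binding were among those higher at MI. Zfp598, the E3 ligase that senses collided ribosomes, stood at 1.40 and 2.03 FPKM in WT and 8.27 and 8.77 in libraries labelled Btg4-/- (1.82 ± 0.44, limma, adjusted p = 0.0017; 0.23 after scaling). Zfp451, a SUMO ligase, stood at 4.35 and 5.52 FPKM in WT and 13.5 and 15.4 in Cnot6l-/- (1.38 ± 0.29, adjusted p = 0.00061). Zfp451 of the libraries labelled Btg4-/- stood at 13.0 and 13.7 (1.28 ± 0.29, adjusted p = 0.001), a call lost after scaling (0.39). Zfp830, needed in the early embryo and in pre-mRNA processing, stood at 0.95 and 1.28 FPKM in WT, 10.5 and 10.6 in Cnot6l-/- (2.45 ± 0.37) and 9.88 and 9.96 in libraries labelled Btg4-/- (2.37 ± 0.37). Zfp143, which binds many promoters, stood at 1.57 and 2.28 FPKM in WT, 10.9 and 11.1 in Cnot6l-/- (2.05 ± 0.34) and 15.8 and 17.8 in libraries labelled Btg4-/- (2.61 ± 0.34). For both genes the mutant libraries lay above every WT MI library.

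Zfp69 (chr4:120602742-120624306) was the single member called lower at MI. It stood at 4.17 and 6.45 FPKM in WT, 2.33 and 2.35 in Cnot6l-/- and 6.07 and 7.55 in libraries labelled Btg4-/-. The Cnot6l-/- difference was -0.89 ± 0.27 (limma, adjusted p = 0.0089). Without WT MI column 2 it was -0.63 (adjusted p = 0.11). Its GV libraries stood at 3.81 and 5.26 FPKM in WT and 2.25 and 4.15 in Cnot6l-/-, which overlapped.

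Within Cnot6l-/- the step from GV to MI was compared after the data had been seen. Of the members, 12 were called higher at MI than at GV and 5 lower (13.8%), where 23.4% of all genes tested were called. Zfp473 stood at 5.75 and 8.17 FPKM at GV and 21.0 and 21.4 at MI (1.49 ± 0.29, limma, adjusted p = 0.0036). Zfp574 went from 2.1 and 3.01 to 7.28 and 8.96 FPKM (1.36 ± 0.23, adjusted p = 0.0015) and Zfp553 from 2.09 and 3.43 to 7.82 and 8.26 FPKM (1.29 ± 0.21, adjusted p = 0.0012). The GV and MI libraries of these genes did not overlap. Against WT at MI, Zfp473 differed by 1.44 ± 0.29 (adjusted p = 4e-04). The 5 lower members were Zfp938, Zfp277, Zfp281, Zfp35 and Zfp82. After scaling 19 members were called higher and 2 lower, with 22.5% of genes called. Without Cnot6l-/- GV library 1 5 members were called, without MI column 2 of that genotype 6, and without MI column 3 4. Between GV and MI no member was called by limma in libraries labelled Btg4-/-, with 1.66% of genes called; 4 were higher and 2 lower at an unadjusted p under 0.05. Without the labelled Btg4-/- GV library 1, 1 member was called.

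**Figure D4:**
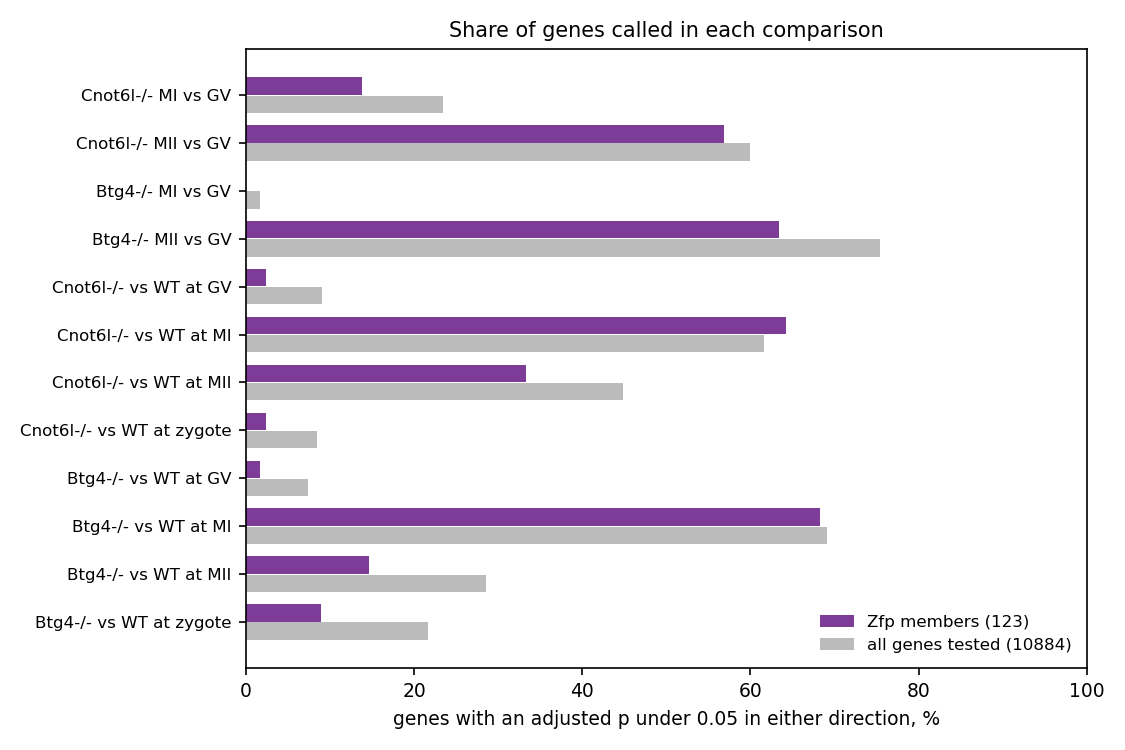
Share of the 123 Zfp members (purple) and of the 10884 genes tested (grey) with an adjusted p under 0.05 in either direction, for 12 comparisons; bars start at 0. At MI the members stood at 64.2 and 68.3% against 61.6 and 69.1% of all genes, and at MII at 33.3 and 14.6% against 44.9 and 28.6%. Members passed a minimum on the WT mean and genes tested a minimum in any group, and differences between the shares were not tested.

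By MII the members had fallen in the mutants too. Against GV, 70 members were called lower in Cnot6l-/- MII oocytes and none higher (56.9%, with 59.9% of all genes tested called), and 78 lower and none higher in libraries labelled Btg4-/- (63.4%, with 75.4% of genes called). Zfp296 fell to 8.27 and 9.31 FPKM in Cnot6l-/- (-3.39 ± 0.43, limma, adjusted p = 5.4e-06) and 3.55 and 7.09 in libraries labelled Btg4-/- (-4.66 ± 0.43, adjusted p = 7e-08). Zfp61 fell to 2.16 and 3.41 FPKM in Cnot6l-/- (-2.67 ± 0.23) and to 0.45 and 0.63 in libraries labelled Btg4-/- (-4.06 ± 0.23). Zfp707 (-3.78 ± 0.41) and Zfp593 (-3.38 ± 0.20) fell likewise in the latter. After scaling 5 members were called higher and 27 lower in Cnot6l-/- (25.8% of genes called), and 1 higher and 28 lower in libraries labelled Btg4-/- (31.3% of genes). Without library 2 of the labelled Btg4-/- MII group, 51 members were called in that genotype. The median member kept 43.5% of its GV level in Cnot6l-/- and 41.8% in libraries labelled Btg4-/-, against 40.6 and 33.5% over all genes. Below 10% were 2 and 15 of the 123 members, against 204 of 9690 and 1692 of 9984 genes.

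Against WT at MII, 41 members were called higher in Cnot6l-/- and none lower (33.3%), where 44.9% of all genes tested were called. In libraries labelled Btg4-/- 18 members were called higher and none lower (14.6%), against 28.6% of genes. The median member differed from WT by 0.53 and 0.41 on the log2 scale and the median gene by 0.56 and 0.38. After scaling 27 members were called higher and 8 lower in Cnot6l-/- (43% of genes called), and 12 higher and 5 lower in libraries labelled Btg4-/- (28.4% of genes). The Cnot6l-/- count was 26 without WT MII library 1, 21 without WT MII library 2 and 19 without Cnot6l-/- MII library 1. The count in libraries labelled Btg4-/- was 6 without WT MII library 2, 4 without its own MII library 1 and 30 without its own MII library 2.

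Zfp277 was the member that differed most from WT at MII in both genotypes. It stood at 2.5 and 4.75 FPKM in WT MII oocytes, 34.1 and 48.2 in Cnot6l-/- and 31.0 and 54.5 in libraries labelled Btg4-/-. The differences were 3.21 ± 0.41 (limma, adjusted p = 7.9e-06) and 3.23 ± 0.41 (1.7e-05), and both held in all 9 alternatives. At MI the same gene stood at 13.7 and 15.7 FPKM in WT, 44.7 and 50.4 in Cnot6l-/- (1.63 ± 0.41, adjusted p = 0.0022) and 49.0 and 54.9 in libraries labelled Btg4-/- (1.75 ± 0.41, adjusted p = 0.0011; 0.12 after scaling). In Cnot6l-/- the MII libraries overlapped those of MI, and from GV to MII the gene changed by -1.67 ± 0.41 (adjusted p = 0.002; 0.1 after scaling).

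Zfp295, also known as Zbtb21, stood at 1.16 and 1.36 FPKM in WT MII oocytes, 11.6 and 15.8 in Cnot6l-/- (2.68 ± 0.42, limma, adjusted p = 6.3e-05) and 5.12 and 10.4 in libraries labelled Btg4-/- (1.89 ± 0.42, adjusted p = 0.0024). Without the labelled Btg4-/- MII library 1 the second difference was 1.44 (adjusted p = 0.057). At GV it stood at 7.52 and 14.7 FPKM in WT and 26.6 and 28.5 in Cnot6l-/-, groups that did not overlap. They were not called apart on the deposited scale (1.30 ± 0.42, limma, adjusted p = 0.064) but were after scaling (adjusted p = 0.0067). The fall of Zfp295 from GV to MII in Cnot6l-/- was not called different from that in WT (1.38 ± 0.59, adjusted p = 0.1). Zfp639 and Zfp672 had a like layout, without a call at GV on either scale. Zfp639 stood at 9.56 and 14.0 against 22.7 and 23.1 FPKM at GV. At MII it stood at 1.42 and 1.83 against 7.64 and 13.3 (2.09 ± 0.42, adjusted p = 0.00071). Zfp672 stood at 10.9 and 18.9 against 21.9 and 23.2 at GV. At MII it stood at 1.91 and 2.41 against 8.73 and 11.1 (1.78 ± 0.42, adjusted p = 0.0023). Zfp345 differed by 2.66 ± 0.57 at MII (adjusted p = 0.0011), but shares 29.2% of its windows with another gene. Zfp961 stood at 4.06 and 4.39 FPKM in WT MII oocytes and 11.2 and 31.3 in Cnot6l-/- (1.93 ± 0.49, adjusted p = 0.0042), and without Cnot6l-/- MII library 1 the difference was 1.23 (adjusted p = 0.1).

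Zfp410 (chr12:85657809-85676817), which activates the chromatin remodeller gene Chd4, was a quieter case with close replicates. It stood at 6.75 and 7.46 FPKM in WT GV oocytes, 2.89 and 2.90 at MI and 0.75 and 1.12 at MII. In Cnot6l-/- it stood at 7.19 and 7.36 at GV, 8.15 and 8.35 at MI and 3.43 and 4.28 at MII, differing from WT by 1.25 ± 0.19 at MI (limma, adjusted p = 2.4e-05) and 1.33 ± 0.19 at MII (adjusted p = 2.7e-05). At MII it stood at 2.60 and 3.86 FPKM in libraries labelled Btg4-/- (1.12 ± 0.19, adjusted p = 0.00027; 0.061 with only the libraries compared). No mutant library at MI or MII overlapped the WT libraries of the stage. Zfp281, a pluripotency factor, stood at 0.16 and 0.40 FPKM in WT MII oocytes and 1.5 and 3.40 in Cnot6l-/- (1.38 ± 0.31, adjusted p = 0.0016). Zfp511 stood at 2.84 and 2.94 FPKM in WT MII oocytes and 9.44 and 9.93 in libraries labelled Btg4-/- (1.46 ± 0.33, adjusted p = 0.0028; 0.076 after scaling).

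Whether the fall from GV to MII itself differed from that in WT was tested as a difference of changes. In Cnot6l-/- 10 members fell less than in WT and none more (8.13%), where 24.8% of all genes tested were called. In libraries labelled Btg4-/- 5 members fell less and none more (4.07%), against 13.9% of genes. After scaling 7 members fell less in Cnot6l-/- and none more. On that scale 5 members fell less in libraries labelled Btg4-/- and 1, Zfp235, fell more (-0.76, limma, adjusted p = 0.035). The share of all genes called after scaling is not given here for either genotype. Zfp277 was called in both: its fall was smaller than in WT by 3.01 ± 0.57 in Cnot6l-/- (limma, adjusted p = 0.001) and by 3.82 ± 0.57 in libraries labelled Btg4-/- (adjusted p = 0.00031), and neither call was lost in the 13 alternatives. Zfp410 was called in both as well, with differences of 1.30 ± 0.27 (adjusted p = 0.0019) and 1.09 ± 0.27 (adjusted p = 0.011). In Cnot6l-/- the call of Zfp410 held throughout. For libraries labelled Btg4-/- it was lost without WT MII library 2 (adjusted p = 0.064), without the labelled Btg4-/- MII library 1 (0.081), after scaling (0.051) and with only the libraries compared (0.14). Zfp61 fell less in Cnot6l-/- by 1.47 ± 0.32 (adjusted p = 0.003; 0.053 with only the libraries compared) and Zfp593 by 1.29 ± 0.29 (adjusted p = 0.0033; 0.054 with only the libraries compared). The Cnot6l-/- count was 16 without WT GV library 2, 6 without Cnot6l-/- GV library 1, 5 without Cnot6l-/- MII library 1 and 17 without Cnot6l-/- MII library 2. The other count was 2 without WT GV library 1, 10 without WT GV library 2, 1 without WT MII library 2, 2 without the labelled Btg4-/- GV library 1, 1 without the labelled Btg4-/- MII library 1 and 15 without the labelled Btg4-/- MII library 2.

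In the zygote few members were still apart from WT. In Cnot6l-/- 3 members were called higher and none lower (2.44%), where 8.42% of all genes tested were called. They were Zfp277, at 3.01 and 5.94 FPKM in WT and 27.3 and 35.7 in Cnot6l-/- (2.61 ± 0.41, limma, adjusted p = 0.00065), Zfp295, at 1.13 and 3.53 against 9.45 and 11.5 (1.88 ± 0.42, adjusted p = 0.0083), and Zfp410, at 0.71 and 0.90 against 2.17 and 2.40 (0.87 ± 0.19, adjusted p = 0.0078). The groups did not overlap for any of them. The calls of Zfp295 and Zfp410 were lost without WT zygote library 2 (adjusted p = 0.14 and 0.075) and without Cnot6l-/- zygote library 2 (0.1 and 0.079). With only the libraries compared, all 3 calls were lost (Zfp277 0.083, Zfp295 0.15, Zfp410 0.36). The count was 1 without either of these libraries and 6 without Cnot6l-/- zygote library 1. After scaling 5 members were called higher and 6 lower, with 15.9% of genes called.

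In zygotes labelled Btg4-/- 11 members were called higher than in WT and none lower (8.94%), against 21.6% of genes. They were Zfp277, Zfp295, Zfp410, Zfp207, Zfp472, Zfp592, Zfp524, Zfp259, Zfp184, Zfp688 and Zfp839. Zfp277 stood at 22.7 and 46.2 FPKM, a difference of 2.66 ± 0.41 from WT (limma, adjusted p = 0.00018; 0.12 with only the libraries compared). The count was 3 without WT zygote library 2, 3 without the labelled Btg4-/- zygote library 1 and 23 without the labelled Btg4-/- zygote library 2. After scaling 5 members were called higher and 3 lower, with 14.8% of genes called, and the 5 were Zfp277, Zfp472, Zfp839, Zfp688 and Zfp259. Zfp296, Zfp61 and Zfp707, all far above WT at MI, were called in neither genotype here: Zfp61 stood at 0.33 and 0.73 FPKM in WT zygotes, 0.33 and 0.54 in Cnot6l-/- and 1.20 and 1.26 in those labelled Btg4-/-.

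Both mutant genotypes were also compared directly, after the data had been seen. At GV 3 members were called higher and 11 lower in Cnot6l-/- than in libraries labelled Btg4-/- (11.4%), where 18.3% of all genes tested were called. Zfp791 was higher by 2.27 ± 0.24 (limma, adjusted p = 5.7e-06; 0.05 with only the libraries compared). Zfp574 was lower by a log2 difference of -1.21 ± 0.23 (adjusted p = 0.0017; 0.053 after scaling and 0.14 with only the libraries compared). Zfp593 was lower by a log2 difference of -1.02 ± 0.20 (adjusted p = 0.0023; 0.058 without Cnot6l-/- GV library 1 and 0.17 with only the libraries compared). After scaling 6 members were called higher and 3 lower, with 9.07% of genes called. The count was 2 without Cnot6l-/- GV library 1 and 3 without the labelled Btg4-/- GV library 1. At MII 5 members were called higher and none lower in Cnot6l-/- (4.07%), with 12.8% of genes called, and the count was 2 without Cnot6l-/- MII library 1 and 3 without the labelled Btg4-/- MII library 2. Among them Zfp61 stood at 2.16 and 3.41 FPKM in Cnot6l-/- and 0.45 and 0.63 in libraries labelled Btg4-/- (1.28 ± 0.23, adjusted p = 0.0012), and Zfp791 at 2.52 and 3.14 against 0.54 and 0.71 (1.23 ± 0.24, adjusted p = 0.0023). With only the libraries compared, both calls were lost (0.11 and 0.096).

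Zfp212 (chr6:47870567-47882636) was called higher than WT at MI in both mutants. It stood at 14.6 and 17.7 FPKM in WT MI oocytes, 58.6 and 64.6 in Cnot6l-/- (1.87 ± 0.30, limma, adjusted p = 3.4e-05) and 64.3 and 72.1 in libraries labelled Btg4-/- (2.02 ± 0.30, adjusted p = 1.4e-05; 0.058 after scaling). At MII it stood at 5.16 and 5.35 FPKM in WT, 10.2 and 10.8 in Cnot6l-/- and 6.62 and 7.57 in libraries labelled Btg4-/-. The Cnot6l-/- difference at MII was 0.87 ± 0.30 (adjusted p = 0.023), lost after scaling (0.75) and without any one of the 4 libraries compared (0.077 to 0.09). In the zygote Zfp212 stood at 7.56 and 7.70 FPKM in WT, 5.93 and 12.2 in Cnot6l-/- and 8.94 and 10.5 in libraries labelled Btg4-/-, without a call. Zfp791 had a different course in Cnot6l-/-: 17.2 and 17.5 FPKM at MI against 0.27 and 0.57 in WT (3.70 ± 0.24, adjusted p = 4.4e-09), 2.52 and 3.14 at MII against 0.30 and 0.53 (1.44 ± 0.24, adjusted p = 0.00013), and 0.66 and 0.70 in the zygote, within the WT libraries at 0.44 and 0.77. Zfp707 stood at 2.30 and 3.54 FPKM in Cnot6l-/- MII oocytes against 0.02 and 0.08 in WT (1.88 ± 0.41, adjusted p = 0.0014), and Zfp61 at 2.16 and 3.41 against 0.19 in both WT libraries (1.65 ± 0.23, adjusted p = 1.9e-05).

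The members were also counted by role, in lists chosen with earlier results of the data known. Over all genes tested, 61.6 and 69.1% were called at MI in Cnot6l-/- and in libraries labelled Btg4-/- against WT, and 44.9 and 28.6% at MII. After scaling these shares were 46.8 and 42.3% at MI and 43 and 28.4% at MII. Of 9 members with roles in RNA, ribosomes, the spindle or ubiquitin, 5 were called higher than WT in Cnot6l-/- at MI and 8 in libraries labelled Btg4-/-. After scaling these counts were 4 and 2. At MII 3 and 2 of them were called higher, and after scaling 2 higher and 1 lower in Cnot6l-/- and 1 higher in libraries labelled Btg4-/-. Of 5 pluripotency and early embryo members (Zfp281, Zfp143, Zfp217, Zfp322a and Zfp296), 4 and 5 were called higher at MI, and 2 and 2 after scaling. At MII 4 and 1 of them were called higher, and 2 and 1 after scaling. Of 4 general promoter factors (Zfp143, Zfp148, Zfp281 and Zfp410), 3 and 3 were called higher at MI, and 2 and 1 after scaling. At MII 3 and 2 of these were called higher on either scale. Zfp143 and Zfp281 are counted both here and among the pluripotency members. No test compared the lists with the other members. Of the silencing list 2 genes were members, Zfp932 and Zfp568. Zfp932 was called higher at MI in Cnot6l-/- (2.45 ± 0.77, limma, adjusted p = 0.011; 0.08 after scaling), and Zfp568 was not called against WT at MI or MII on the deposited scale. After scaling it was called lower than WT in MII libraries labelled Btg4-/- (-0.47, adjusted p = 0.035). Zfp568, which represses a placental Igf2 transcript, stood at 1.46 and 3.02 FPKM in WT GV oocytes and 1.03 and 1.11 at MII.

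The next values describe the members by KRAB box, finger number and position, without a test. The median WT level left at MII was 20.7% for the 50 members with a KRAB box and 20.8% for the 72 without. In libraries labelled Btg4-/- the medians at MII were 54.0 and 38.5%. In Cnot6l-/- at MII 11 of 50 KRAB members were called higher than WT and 29 of 72 others, with 44.9% of all genes tested called; KRAB members had a lower median WT level (2.06 against 3.66 FPKM). The 19 members with 1 to 4 fingers kept a median of 9.13% in WT at MII and the 56 with 10 or more kept 21.4%. On chromosome 7 lay 27 members, on chromosome 17 20 and on chromosome 8 12, and 45 had another member within 200 kb. The longest run was Zfp420, Zfp383, Zfp74, Zfp568, Zfp82 and Zfp260 at chr7:30644998-30892633. Zfp61, Zfp108, Zfp109 and Zfp235 form a run at chr7:24919182-25084568, and in WT at MI Zfp61 was left at 0.90 and 1.03 FPKM while Zfp235 stood at 1.97 and 2.24, beside 1.04 and 1.97 at GV.

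The 68 members with a CPE in the 3 prime UTR kept a median of 40.8% of the GV level at WT MI and 25.1% at MII, and the 32 without one kept 20.8% and 12.2%. In Cnot6l-/- MII oocytes the medians were 50 and 27.2%, and in MII libraries labelled Btg4-/- 46.8 and 30.6%. Members with a CPE had longer UTRs (median 1468 against 734 bases), and length and the element were not separated. Other motifs, searched on the transcript strand, were the AU-rich element TATTTAT in 33.0% of members against 25% of tested genes, the Pumilio element TGTANATA in 29.0 against 22.6%, and the signal AATAAA in 82.0 against 78.8%. The 33 members with the AU-rich element kept a median of 20.4% at WT MII and the 67 without it 21.5%.

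The partners of KRAB proteins were read from a list of 32 corepressor and heterochromatin genes, of which 29 were tested. In WT, 22 were called lower at MII than at GV and none higher (75.9%, where 83.4% of all genes tested were called), with a median change of -1.46. After scaling 8 were higher and 9 lower, with 58% of genes called. At MI 11 were called higher than WT in Cnot6l-/- (37.9%, median 0.50) and 14 in libraries labelled Btg4-/- (48.3%, median 0.83), and none lower, beside 61.6 and 69.1% of all genes tested. After scaling 5 were higher and 5 lower in Cnot6l-/- (46.8% of genes called), and 3 higher and 7 lower in libraries labelled Btg4-/- (42.3% of genes). Trim28, the corepressor that KRAB boxes bind, had mean levels of 25.9, 18.9, 17 and 6.52 FPKM at GV, MI, MII and zygote in WT. In Cnot6l-/- its means were 16.8, 23.2, 15.3 and 11.5 FPKM, and in libraries labelled Btg4-/- 51.2, 34.3, 16.7 and 8.96. Trim28 in Cnot6l-/- was not called apart from WT at GV, MI or MII (limma, adjusted p = 0.54, 0.59 and 0.94). From GV to MII it was not called in WT (-0.69 ± 0.44, adjusted p = 0.15). In libraries labelled Btg4-/- that step was called lower (-1.53 ± 0.44, adjusted p = 0.005, and 0.7 after scaling). Suv39h1, a histone H3 lysine methyltransferase, had means of 28.2 FPKM at GV and 0.27 at MII in WT.

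Other zinc finger families passed the same minimum with 15 of 38 Zbtb genes and 7 of 24 Zscan and Zkscan genes. At MI 10 of the 15 Zbtb genes were called higher than WT in Cnot6l-/- and 9 in libraries labelled Btg4-/-, with medians of 1.15 and 1.17, where 61.6 and 69.1% of all genes tested were called. After scaling 6 were higher and 1 lower in each genotype. Of the 7 Zscan and Zkscan genes 6 were called higher in each, with medians of 2.55 and 2.97, beside 1.19 and 1.26 for the Zfp members. After scaling 6 were higher and 1 lower in Cnot6l-/- and 5 higher and 1 lower in libraries labelled Btg4-/-. No test compared these families.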

How the data were processed

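RNA was measured by Smart-Seq2 libraries cut with the Tn5 transposase. Per the submitters' processing notes, the authors used CASAVA 1.8, TopHat2 2.0.11, Bowtie2 2.1.0, Cufflinks 2.2.1 and mm9. The deposited values are FPKM per gene; the scaling that the authors applied to FPKM across libraries, and the depth, are unknown here. The labels give 100 oocytes per library in the extraction protocol and 2 in the series text. MI columns carry other numbers than the titles, so they were assigned to groups only. limma 3.58.1 (R 4.3.3, moderated two-sided test with trend) was fitted to log2(FPKM + 1) over 12 group means of 24 libraries, with 12 residual degrees of freedom. Genes whose mean reached 1 FPKM in any group were tested (10884 genes). A fold on this scale understates changes of low genes. The median-ratio scaling used 3677 genes above 1 FPKM in every library and left 9823 genes to test; the design had assumed values of a fixed total. The limma fit was tried on simulated data for the comparison of Cnot6l-/- with WT at MII, with noise independent between libraries.

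Members and lists were chosen with earlier results of these data known. Named genes were the 10 highest WT means, up to 8 per direction and comparison with at least 5 FPKM and no overlap, members of the role lists, 5 genes on each side of the minimum, 4 with the highest zygote to MII ratio, and the targeted genes; the text gives some of them. The genes named with the zygotes labelled Btg4-/-, with the Cnot6l-/- step from GV to MI, and with the chromosome 7 runs, and Zfp423, Zfp639 and Zfp672 where outside that rule, were picked with their values in view. There were 20 comparisons, 4 of them added later; the 4 between WT stages are described without calls, since WT values chose the members. Fingers and KRAB boxes were searched in translated coding sequences of the annotation.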

Additional observations from a re-analysis of the deposited data

Results flagged for a closer look

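The change from GV to MII differed between genotypes by a test of the difference itself, on the log2(FPKM + 1) scale with limma. In Cnot6l-/- against WT 10 members differed: Zfp277 by 3.01, Zfp707 by 1.66, Zfp61 by 1.47, Zfp414 by 1.44, Zfp410 by 1.30, Zfp593 by 1.29, Zfp524 by 1.24, Zfp592 by 1.23, Zfp933 by 1.19 and Zfp259 by 0.84. All of these fell less than in WT. Of 13 alternatives for each, the call was lost in 9 for Zfp707, 7 for Zfp592, 6 for Zfp259, 4 each for Zfp524 and Zfp933, and 1 each for Zfp61 and Zfp593, and in none for Zfp277, Zfp414 and Zfp410. After median-ratio scaling the adjusted p was 0.36 for Zfp592, 0.079 for Zfp524 and 0.071 for Zfp707. Without Cnot6l-/- MII library 1 it was 0.16 for Zfp707, 0.15 for Zfp259, 0.095 for Zfp933, 0.08 for Zfp592 and 0.061 for Zfp524. Without Cnot6l-/- GV library 1 it was 0.27 for Zfp707, 0.093 for Zfp524, 0.079 for Zfp259 and 0.065 for Zfp592. Without WT GV library 1 it was 0.14 for Zfp592, 0.091 for Zfp933 and 0.083 for Zfp259.

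In libraries labelled Btg4-/- against WT 5 members differed: Zfp277 by 3.82, Zfp958 by 3.01, Zfp472 by 2.62, Zfp830 by 1.81 and Zfp410 by 1.09. All of these fell less than in WT as well. Zfp958, Zfp472 and Zfp830 each missed the threshold without WT MII library 2 (adjusted p = 0.16, 0.078 and 0.12) and without the labelled Btg4-/- MII library 1 (0.24, 0.11 and 0.18). Zfp958 lost the call in 8 of 13 alternatives, Zfp472 and Zfp830 in 6 each and Zfp410 in 4, and Zfp277 in none.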

How the results depend on the processing

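Of 831 values of single genes under an alternative, 729 kept their direction and their side of the threshold, 102 lost the call and none reversed; of 166 counts of members called, 86 stayed within 1.5 times and 80 did not. A fit of only the libraries compared lost 25 of 86 gene calls and scaling 15. Where a count moved, the cause was not tested, except that leaving out a library or fitting fewer libraries leaves fewer degrees of freedom. With 2 libraries per group and unknown depth, low members carry the least certain values. Between WT stages the median log2 change of the members is described without calls, with alternatives chosen after seeing the data: scaling gave -0.20 for MI against GV, -0.24 for MII against GV, -0.13 for MII against MI and 0.35 for zygote against MII, a pseudocount of 0.1 gave -2.18 for MII against GV and -0.83 for MII against MI, and all family genes gave -1.13 for MII against GV. The planned counts of calls between WT stages are not given, since WT values chose the members. Median-ratio scaling gave 32 members called for Cnot6l-/- MII against GV, 29 for labelled Btg4-/- MII against GV, 11 for Cnot6l-/- zygotes, 1 for labelled Btg4-/- GV and 42 for labelled Btg4-/- MI, each against WT, and 9 and 9 for the mutants against each other at GV and MII. A pseudocount of 0.1 gave 8 for Cnot6l-/- zygotes, 1, 34 and 25 for labelled Btg4-/- GV, MII and zygotes, 20 and 9 for the differences of changes, 3 for Cnot6l-/- MI against GV, and 4 and 9 for the mutants at GV and MII. With no filter on low values the counts were 11 and 4 for labelled Btg4-/- MII and zygotes, 2 for its difference of changes and 2 for the mutants at MII. A fit of only the libraries compared gave 1 and 0 for Cnot6l-/- GV and zygotes, 0, 9 and 0 for labelled Btg4-/- GV, MII and zygotes, 3 and 1 for the differences of changes, and 0 and 0 for the mutants at GV and MII.

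Counting all family genes tested instead of the members gave 132 and 148 for Cnot6l-/- MII and labelled Btg4-/- MII against GV. Against WT the counts were 12, 156, 65 and 6 for Cnot6l-/- at GV, MI, MII and zygote. For labelled Btg4-/- at GV and MI they were 6 and 161. They were 42 for Cnot6l-/- MI against GV, and 29 and 13 for the mutants at GV and MII. That set is larger than the 123 members, so a higher count is not a stronger effect.

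Leaving out each library in turn gave 51 to 88 members for labelled Btg4-/- MII against GV, 19 to 52 and 1 to 6 for Cnot6l-/- MII and zygotes, 1 to 8, 4 to 30 and 3 to 23 for labelled Btg4-/- GV, MII and zygotes, 5 to 17 and 1 to 15 for the differences of changes, 4 to 15 and 0 to 1 for MI against GV in Cnot6l-/- and labelled Btg4-/-, and 2 to 20 and 2 to 5 for the mutants at GV and MII.

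Library numbers were used as a replicate block in a fit without the MI libraries, and the main fit has no such block. Over 36 pairs of groups, the correlation of deviations had a median of 0.44 and ranged from -0.31 to 0.71. It passed 0.1 in 28 pairs and was below 0 in 7, so most pairs of groups shared a part by library number. What the numbers stand for is not known here. With the block the counts were 7 and 6 for Cnot6l-/- GV and zygotes, 7, 31 and 22 for labelled Btg4-/- GV, MII and zygotes, 14 for its difference of changes and 8 for the mutants at MII; other counts stayed within 1.5 times. A block of the MI column numbers, chosen after seeing the data, gave 103 and 107 at MI.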
